A study of Mus musculus with 2 samples.

Results

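The genes described here are those of MHC class I antigen presentation: the heavy chains H2-K1, H2-D1, H2-T23 and H2-M3, their light chain B2m, the transactivator Nlrc5, the peptide transporter subunits Tap1 and Tap2, the loading factor Tapbp and the peptide trimming enzyme Erap1. Members were found by symbol: every probe set whose only annotated gene was one of these 10 was taken. This gave 26 probe sets of 45101, covering 9 of the 10 genes. H2-T23 had no probe set of its own, since both that name it also name a pseudogene. The study measured total RNA of thymocytes at the DN3 stage, T cell precursors sorted as negative for lineage markers and CD44 and positive for CD25. There was 1 array of Miz1 knockout cells and 1 of wild-type cells, both on the C57BL/6 background. The gene Zbtb17 encodes Miz-1, a DNA-binding regulator of transcription with a POZ domain for contacts with partner proteins, and that domain is deleted in the knockout. The sources used here do not give how or in which cells it was deleted, nor how many animals gave the RNA of each array. The comparison asks how loss of Miz-1 activity alters gene expression in these cells.

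MHC class I molecules carry peptides from inside the cell to its surface, where CD8 T cells and natural killer cells read them. Peptides cut by the proteasome are pumped into the endoplasmic reticulum by the TAP transporter, trimmed there, and loaded onto a heavy chain paired with beta-2-microglobulin. Interferons raise the transcription of most of these genes, and NLRC5 drives it through promoter elements that the class I genes share. Cortical thymocytes are known for low surface class I.

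Class I heavy chain promoters are known for a kappa B site, an interferon response element, a CRE-like element (the X2 box) and a Y box. Promoter windows of 250 bases before to 50 after each start site were at hand from RefSeq (GRCm38.p6) for 8 of the members, in 9 windows. The 200 bases before the start are shown for 5 of them. These are the heavy chains H2-K1 and H2-D1, their relative H2-M3, whose ratio lay just under the 2-fold line, and B2m and Tap1. Capitals mark matches, on either strand, to GGGATTCCC (kappa B), GAANNGAAA and GAAANNGAA (interferon response, forms that can overlap), TGACG (CRE core) and GATTGG (Y box).
H2-K1, chr17:34000334-34000533, strand -: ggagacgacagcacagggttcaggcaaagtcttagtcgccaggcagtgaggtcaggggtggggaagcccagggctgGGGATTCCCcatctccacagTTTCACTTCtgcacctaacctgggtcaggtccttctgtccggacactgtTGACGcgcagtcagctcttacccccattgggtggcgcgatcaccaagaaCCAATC
H2-D1, chr17:35262894-35263093, strand +: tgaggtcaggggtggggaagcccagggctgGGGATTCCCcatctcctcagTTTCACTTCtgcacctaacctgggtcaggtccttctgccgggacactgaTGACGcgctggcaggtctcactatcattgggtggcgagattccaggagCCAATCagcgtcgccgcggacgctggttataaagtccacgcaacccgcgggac
H2-M3, chr17:37270034-37270233, strand +: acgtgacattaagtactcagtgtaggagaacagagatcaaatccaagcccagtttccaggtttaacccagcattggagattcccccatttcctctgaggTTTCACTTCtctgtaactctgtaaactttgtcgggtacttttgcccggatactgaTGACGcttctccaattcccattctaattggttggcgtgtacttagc
B2m, chr2:122147487-122147686, strand +: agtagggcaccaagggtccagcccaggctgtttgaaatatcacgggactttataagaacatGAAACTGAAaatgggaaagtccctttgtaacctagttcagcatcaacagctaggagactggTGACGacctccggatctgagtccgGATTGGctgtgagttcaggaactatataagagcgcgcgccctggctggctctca
Tap1, chr17:34187356-34187555, strand +: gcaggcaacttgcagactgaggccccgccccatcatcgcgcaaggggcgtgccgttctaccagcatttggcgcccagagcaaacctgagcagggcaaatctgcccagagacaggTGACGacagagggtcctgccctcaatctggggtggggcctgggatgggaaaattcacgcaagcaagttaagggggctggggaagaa

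The H2-K1 and H2-D1 windows each held 4 of the 5 motifs, in the same order. Only 9 of 32851 windows (0.0274%) held 4 or more. The others were a second H2-K1 window, whose start site lies 14 bases away, and those of the class I gene H2-Q7 and of Zfp420, H2aw, Gpr15, Stx5a and Smarca1. Since the motifs were taken from known class I heavy chain promoters, finding class I genes among these windows is no test. The kappa B match, found in 0.353% of all windows, began 124 bases before the start of H2-K1 and 170 before that of H2-D1. The GAANNGAAA match began 104, 150 and 101 bases before the starts of H2-K1, H2-D1 and H2-M3, and occurs in 7.52% of windows. B2m held the GAAANNGAA form, 139 bases before its start, as did the windows of Erap1 and H2-T23, which are not shown. That form occurs in 8.56% of windows. TGACG (20.8% of windows) lay in those of H2-K1, H2-D1, H2-M3, B2m and Tap1. GATTGG (16.1%) lay in those of H2-K1, H2-D1, B2m and H2-T23, and 222 bases before the start of Tap1. The Tapbp window held none of the 5. Over 253 aligned bases the H2-K1 and H2-D1 windows were 87.7% identical, against 64.0% and 66.2% for H2-M3 with each of them, so H2-K1 and H2-D1 are not separate cases. A match describes letters in a window and shows no binding.

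Most of the class I machinery was brighter in the knockout. Of the 9 genes with a probe set, 7 (77.8%) were higher by at least 2-fold and 0 were 2-fold lower, whereas 7.23% of the 10770 measured genes were higher by that much and 5.65% lower. The 7 were Nlrc5, H2-K1, H2-D1, B2m, Tap1, Tapbp and Tap2. The remaining genes were H2-M3, at 1.98-fold just under the line, and Erap1, which read almost the same on both arrays. The median log2 ratio of knockout over wild type was 1.43 for the members and 0.00021 for all measured genes. Each gene was read by its brightest probe set. A gene is called measured where the mean of both arrays exceeded a floor of 394 scaled units, the median of all non-control values. With 1 array per genotype there is no replicate and no test of genotype, so the differences compare these arrays and are described by size. RNA from a mixed sample cannot tell more cells of a type from more RNA per cell.

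The only repeated measurement was that of several probe sets for 1 gene. Over 4514 genes with 2 or more measured probe sets, the SD of the log2 ratio within a gene was 0.57 (root mean square). By the brightest probe set, the ratios of Nlrc5, H2-K1, H2-D1 and B2m lay more than 3 times that SD from 0. Those of Tap2, Tapbp and H2-M3 lay less than 2 times. The lowest measured probe sets of B2m, H2-K1 and H2-D1, at 1.28, 0.78 and 0.75 (a bound), lay less than 3 times that SD from 0. The SD describes the spread among probe sets of a gene and contains no variation between animals, so it does not give the error of a genotype difference.

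**Figure D1:**
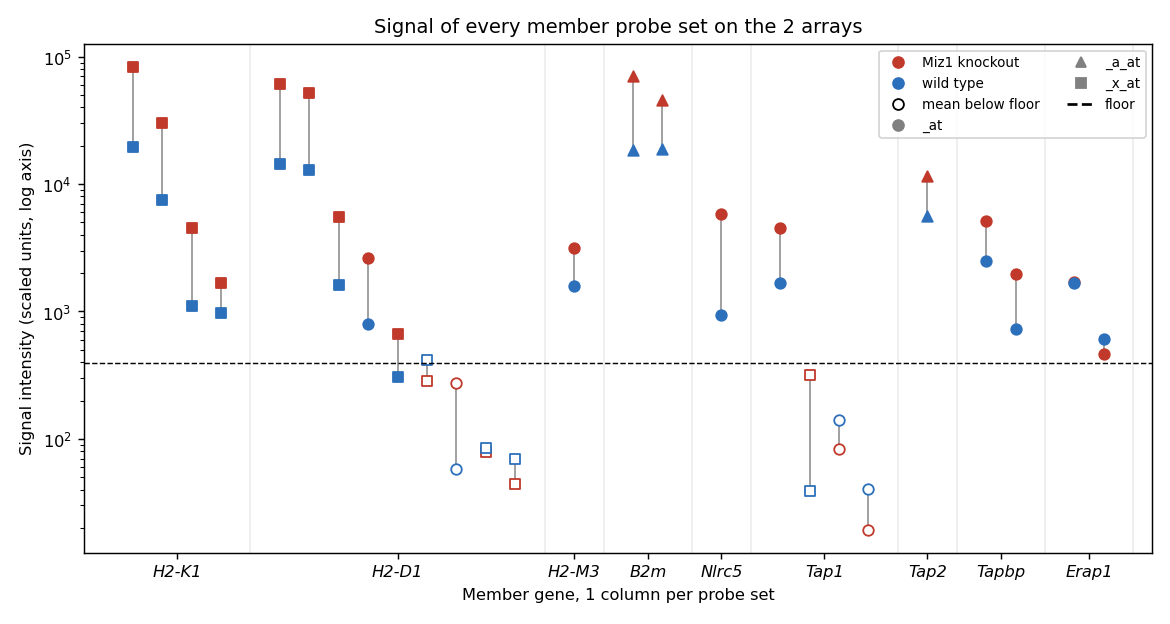
Signal intensity (scaled units, log axis) of the 26 member probe sets, 1 column each, grouped by gene, with the knockout in red and the wild type in blue. Open symbols have a mean below the floor (dashed line), and marker shapes give the probe set's suffix; the knockout symbol is above the wild-type one in 18 of the 19 filled columns.

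Among the heavy chains, which hold the peptide and are what receptors see, H2-K1 had a knockout signal of 82937 and a wild-type signal of 19556 by its brightest probe set, 4.24-fold higher. The next brightest, 30337 against 7469 and 4486 against 1095, were 4.06-fold and 4.10-fold higher. The dimmest, 1660 against 966, was 1.72-fold higher. Thus 3 of 4 probe sets gave about the same ratio over a wide span of signal and the least bright gave a smaller one.

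H2-D1, the other classical heavy chain of this strain, read 60702 against 14341, 4.23-fold higher. A second bright probe set read 51483 against 12942, 3.98-fold higher. Further probe sets read 5508 against 1604 (3.43-fold) and 2641 against 791 (3.34-fold). The fifth measured H2-D1 probe set read 664 against 308, the latter under the floor, at least 1.69-fold higher. All 5 measured H2-D1 probe sets were therefore brighter in the knockout, and the last value is only a bound. The other 4 H2-D1 probe sets had means below the floor and gave no ratio.

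All 4 H2-K1 probe sets and 7 of the 9 for H2-D1 carry the suffix _x_at, which marks probes that may bind other transcripts, here the near-identical relatives. The single H2-D1 probe set without that suffix to pass the floor was the one at 3.34-fold. Signal of H2-K1, H2-D1 and other class I copies cannot be told apart on the _x_at probe sets. Of 19 measured member probe sets, 14 were at least 2-fold higher (73.7%, against 8.17% of all 21897 measured probe sets) and 0 were 2-fold lower (against 5.43%). By suffix the 14 comprised 6 of 8 with _x_at, 3 of 3 with _a_at, which marks probes that bind several transcripts of 1 gene, and 5 of 8 with neither; none of the members' probe sets ended in _s_at. The median log2 ratio was 2.01 with _x_at, 1.28 with _a_at and 1.24 with neither.

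H2-M3, a class I-b heavy chain that presents N-formylated peptides, read 3145 against 1587 by its only probe set, a log2 ratio of 0.99. Another 5 probe sets name a member together with a further gene and stayed unassigned. Of these, 3 had a mean above the floor, with log2 ratios from 0.03 to 2.15, and 1 was at least 2-fold higher. Those that name H2-T23 with a pseudogene had log2 ratios of 0.03 and 0.79.

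B2m, the light chain without which most class I molecules do not reach the surface, read 70954 against 18572 and, by its second probe set, 45551 against 18775. These are 3.82-fold and 2.43-fold higher. The probe sets gave nearly the same wild-type signal and differed in the knockout.

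Nlrc5, the transactivator of class I genes, had the highest ratio of the members. Its single probe set read 5843 against 937, 6.23-fold higher. Ranked by ratio among the 10770 measured genes, Nlrc5 stood 10th, H2-K1 49th, H2-D1 51st and B2m 67th. Tap1 stood 243rd, and Tapbp, Tap2 and H2-M3 stood 704th, 717th and 809th.

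Among the loading genes, Tap1 read 4524 against 1675, 2.70-fold higher, by its 1 measured probe set of 4; on the other 3 both arrays were below the floor. Tap2, the transporter's other subunit, read 11539 against 5622, 2.05-fold higher. Tapbp, which encodes tapasin, the bridge from TAP to the heavy chain, read 5133 against 2491 and 1958 against 724, 2.06-fold and 2.70-fold higher. Both transporter subunits were thus brighter in the knockout, but Tap2 and the brighter Tapbp probe set were close to the 2-fold line, and with median centring Tap2 was under it, at a log2 ratio of 0.998.

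Erap1, which trims peptides in the endoplasmic reticulum, was the exception. Its brighter probe set read 1692 against 1675, a log2 ratio of 0.01, and its dimmer one 460 against 610, a log2 ratio of -0.41. It ranked 5281st of the measured genes, near the middle. The dimmer Erap1 probe set was the only measured one of the 19 with a lower signal in the knockout.

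**Figure D2:**
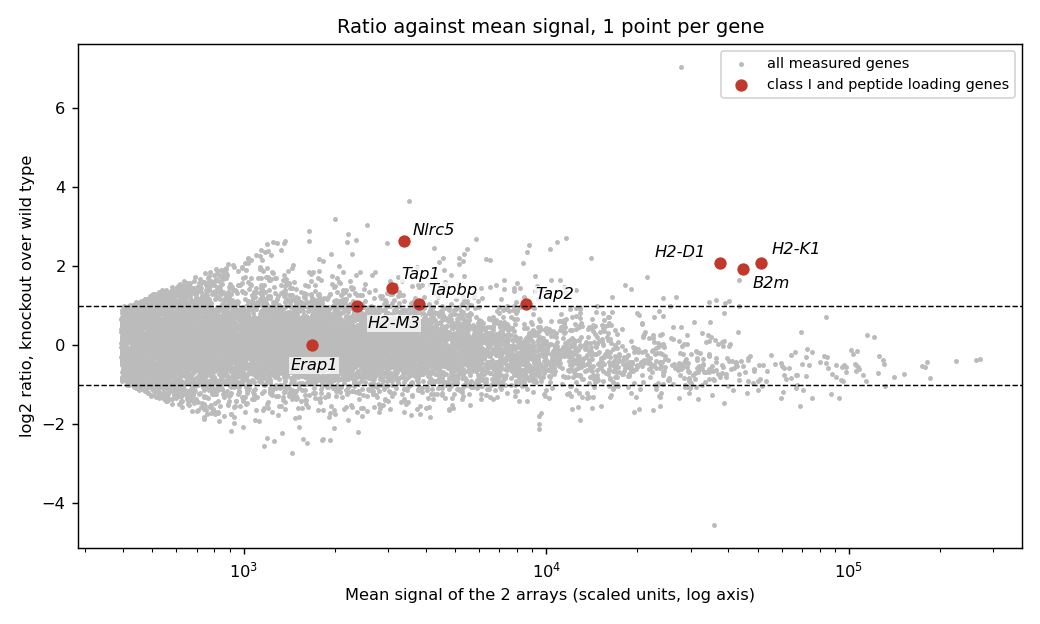
Log2 ratio of knockout over wild type against mean signal (log axis), 1 point per measured gene (10770, grey), with the 9 members in red and dashed lines at 2-fold. H2-K1, H2-D1 and B2m stand above 1.9 where most bright genes lie below 0.

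Bright genes as a whole leaned the other way. The brightest 10% of measured genes, those with a mean of at least 7099, had a median log2 ratio of -0.34, and 4.09% passed 2-fold upward and 7.89% downward. This class, set after the values were seen, held 1077 genes. H2-K1, H2-D1, B2m and Tap2 were in it, and all 4 were at least 2-fold higher. By ratio H2-K1, H2-D1 and B2m ranked 9th, 11th and 12th of the 1077, and Tap2 44th. Quantile and loess normalization, which level a trend with brightness, gave higher log2 ratios for these 4 genes, up to 2.53 for H2-K1.

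The genes with the ratio nearest to the members' median, among those with a mean of at least 4 times the floor, were Resf1, Cd93, Dtx3l, Anxa5 and Psrc1. Their log2 ratios were all within 0.014 of it, with Dtx3l at 10607 against 3950 and Resf1 at 8884 against 3290. Likeness here rests on 1 ratio per gene.

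Related genes were taken from lists that hold none of the members. Of 12 measured chaperones and enzymes that fold class I or feed it peptides, 0 passed 2-fold in either direction by their brightest probe set, with a median log2 ratio of 0.07. Other probe sets reached a log2 ratio of 1.79 for the peptidase Tpp2, whose brightest gave -0.16, and -1.03 for Ide. Calr, Canx and Pdia3, the general folding helpers of the loading complex, had log2 ratios of -0.26, 0.04 and 0.10. Tapbpl, which edits peptides as a relative of tapasin, had 0.65 and the cytosolic peptidase Ide -0.79.

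None of the 6 measured genes of the immunoproteasome and its activator passed 2-fold in either direction by the brightest probe set, with a median of 0.23. Psmb8, Psmb9 and Psmb10, the catalytic subunits that interferon is known to induce, had log2 ratios of 0.31, 0.64 and 0.16. Psmb9 and Psmb8 flank Tap1 in the RefSeq gene order (GRCm38.p6). Psmb9 read 5237 against 3367 and Psmb8 17634 against 14259, 1.56-fold and 1.24-fold, beside 2.70-fold for Tap1. A second, dimmer Psmb8 probe set had a log2 ratio of 1.02, just past 2-fold. The constitutive counterparts Psmb5, Psmb6 and Psmb7 had -0.53, 0.32 and 0.03.

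Other class I and class I-like genes could be read for few members. Only 10 of the 22 listed have a probe set of their own and 4 were measured: Mr1 at 0.18, Cd1d1 at -0.08, H2-Q2 at -0.21 and H2-T3 at -0.80. None passed 2-fold. Several H2-Q and H2-T genes share probe sets and were not read.

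Of 14 measured genes that regulate class I transcription, 3 were at least 2-fold higher and 0 lower, with a median of 0.41. Irf9 and Irf7 were 3.05-fold and 2.98-fold higher, and Stat2 at least 2.33-fold, all parts of the type I interferon response. Irf1, which binds the class I interferon element, read 6598 against 3485, a log2 ratio of 0.92. The subunits of the RFX complex, with which NLRC5 acts at the promoter, had log2 ratios of 0.52 for Rfx5, 0.16 for Rfxank and -0.14 for Rfxap. Those of the Y box factor were -0.22 for Nfya, 0.52 for Nfyb and -0.28 for Nfyc.

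Of 7 measured interferon receptor and JAK kinase genes, Ifngr1, the ligand-binding chain for interferon gamma, was 2.77-fold higher (16848 against 6080). By the brightest probe set the other 6 ranged from -0.64 for Ifnar2 to 0.78 for Il10rb, whose wild-type signal was under the floor. A second Jak2 probe set had 1.43. Ifnar1 had 0.77 by its brightest probe set and -0.86 by its second. Interferon-induced genes outside antigen presentation, a list chosen with their behaviour in these arrays known, had 17 of 24 measured genes at least 2-fold higher and 0 lower, with a median of 1.42 beside 1.43 for the members. Oas1a (6.96-fold) and Usp18 (6.34-fold) were highest, and Bst2 and Ddx58 lowest at log2 ratios of 0.17 and -0.10.

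**Figure D3:**
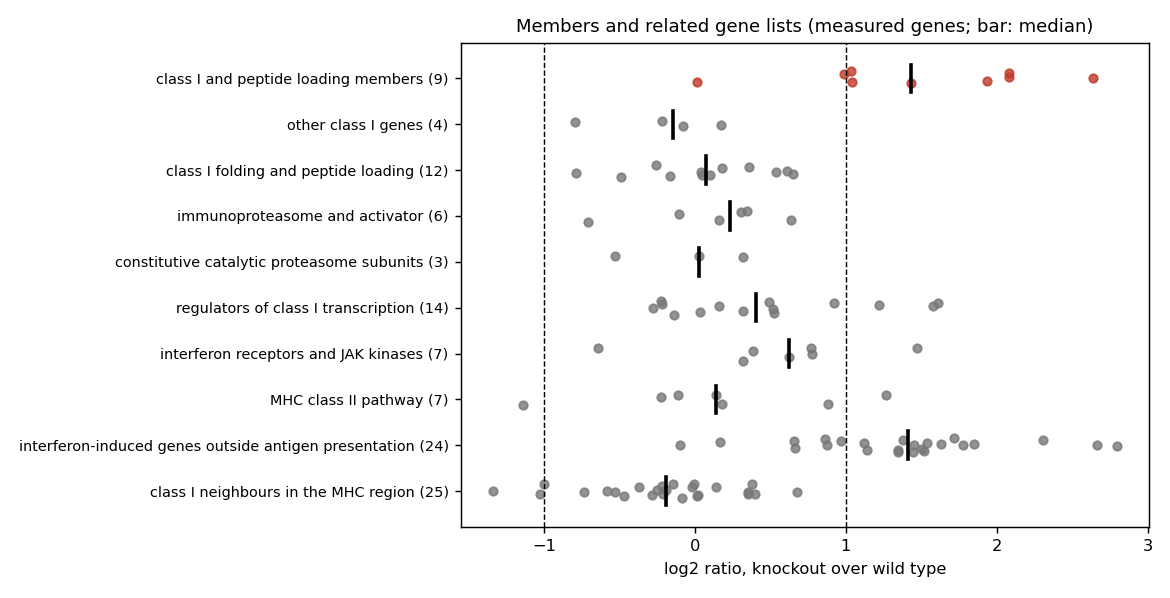
Log2 ratio of knockout over wild type for each measured gene of the members (red) and of 9 related lists (grey), with the number of genes in brackets, black bars at the medians and dashed lines at 2-fold. The members and the interferon-induced genes have medians of 1.43 and 1.42, and the other lists lie between -0.19 and 0.63.

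Neighbouring genes of the MHC region on chromosome 17 mostly differed by less than 2-fold. Of 25 measured genes on the list of neighbours, 0 were at least 2-fold higher by their brightest probe set. By that probe set 2 were lower, Tubb5 (2.53-fold) and Stk19 (2.03-fold), and the median was -0.19. Other probe sets reached log2 ratios of -1.55 for Abcf1 and -1.03 for Agpat1. Of 31 listed genes found on chromosome 17, 30 lie between Tapbp and H2-M3 or within 1 Mb. Vps52 and Ring1, on either side of H2-K1 in the RefSeq order, had log2 ratios of 0.38 and -0.73.

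MHC class II molecules present peptides taken up from outside and are made by B cells, dendritic cells and macrophages. Of 12 genes of that pathway with a probe set 7 were measured, with a median of 0.14: Ctss was at least 2.40-fold higher and Ifi30 2.20-fold lower (977 against 2146). H2-DMa, a chain of the class II peptide exchanger, read 1941 against 1054, a log2 ratio of 0.88. H2-Aa, H2-Ab1 and H2-Eb1 were under the floor on both arrays, and Cd74 and Ciita, the class II transactivator and a relative of Nlrc5, had log2 ratios of -0.11 and -0.22.

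As a check of the sorted population, all 10 DN3 markers with a probe set were measured, among them Ptcra at 11518 against 7513, whereas Cd44 had a mean under the floor. The markers were not level: Dtx1, Il2ra, which encodes CD25, and Cd3g were 5.09-fold, 4.61-fold and 2.17-fold higher in the knockout and none was 2-fold lower (median 0.42). Zbtb17 read 1361 against 3042 by its brighter probe set, and since the sources used here do not place its probes relative to the deleted part, it does not check the labels. Of 14 myeloid markers 13 have a probe set and 4 were measured. Lyz1, Lyz2 and Csf1r were 8.19-fold, 3.59-fold and 2.28-fold higher by their brightest probe sets, and Adgre1 had a log2 ratio of -0.05. Other probe sets gave log2 ratios down to 0.87 for Lyz1 and 0.05 for Csf1r. Summed over the 13, the knockout signal was 11048 and the wild-type signal 4210. Of these sums Lyz1 gave 4549 and 555, and Lyz2 gave 2646 and 736. Itgam, Cd68, Fcer1g, Mpo and S100a8 were under the floor on both arrays. Of 8 dendritic cell markers only Bst2, itself interferon-induced, was measured, and the summed signals were 4820 and 5270. Of 5 measured gamma-delta T cell markers 3 were at least 2-fold higher, namely Trgv4, Maf and Cpa3. Blk and Sox13 had log2 ratios of 0.21 and -0.14. The gamma-delta sums were 72501 and 26139, of which Trgv4 alone, read by an _x_at probe set, gave 65522 and 20957. The B cell sums were 15941 and 31673, and 4601 and 3465 without Ighm; of 5 measured B cell markers, Ighm and Cd22 were at least 2-fold lower, while Cd79b, Cd79a and Ms4a1 had log2 ratios of 0.90, 0.78 and 0.54. Of 4 measured markers of double positive and mature T cells, Klf2 was at least 2.67-fold higher. Il7r, Cd8a and Cd5 had log2 ratios of 0.88, 0.12 and -0.60. Cd4 was under the floor on both arrays, and Cd8b1 had a mean under it. The sums were 13140 and 9171 over 9 genes, of which Il7r alone gave 9300 and 5065. Of 6 measured natural killer and innate lymphoid markers, Nkg7 was 2.40-fold higher. Prf1 and Gzmb had log2 ratios of 0.86 and 0.85, and Gzma, Il2rb and Klrd1 had -0.50, -0.47 and -0.79. Gzmb, Il2rb and Klrd1 were under the floor on the dimmer array. The sums over 8 genes were 22114 and 24101, of which Gzma alone gave 13881 and 19641. Of 10 markers of thymic stroma and endothelium 3 were measured, Epcam, Col1a1 and Krt5, with log2 ratios of 0.93, 0.69 and -0.19. Col1a1 was under the floor on the wild-type array, and a second Epcam probe set had -0.20. The sums over the 10 were 7637 and 4961. Of the erythroid markers only Hba-a1 was measured, at 0.12, with sums of 881 and 853. The part of cell stage or of such other cells in the class I difference was not tested. Xist read 55300.0 against 423, knockout first, and the Y-linked gene Kdm5d 36.7 against 1782, so the animals differed in sex, and sex and genotype cannot be told apart for any value here.

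**Figure D4:**
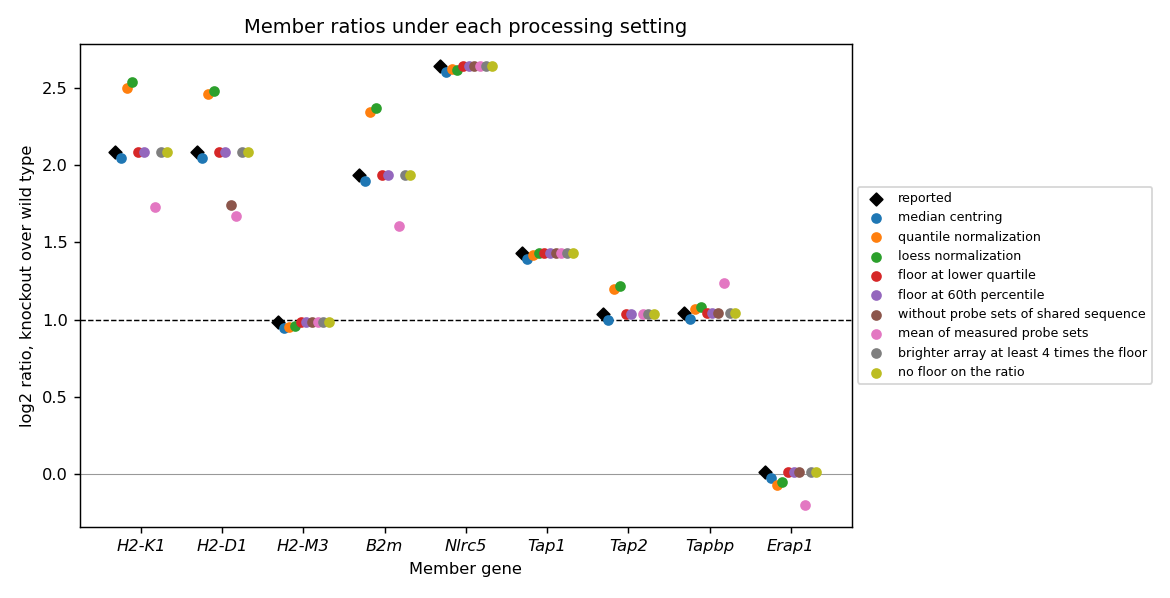
Log2 ratio of knockout over wild type of the 9 members as reported (black diamonds) and under 9 other processing settings (coloured circles), with a dashed line at 2-fold. H2-K1, H2-D1 and B2m stay above 1.6 and Nlrc5 above 2.6 in all settings shown that hold them, while Tap2, Tapbp and H2-M3 lie at the line and Erap1 near 0.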

How the data were processed

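Total RNA was extracted with TRIzol, amplified and biotin-labelled, per the labels' protocols. The deposited table gives 1 linear signal intensity per probe set and array. The submitters' processing notes name GCOS 1.4, without settings. Both arrays have a mean of 1000 after trimming 2% at each end, so the deposited intensity values had been scaled before deposit. Detection calls were not used here.

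The 64 control probe sets were left out. Symbols came from the platform annotation (34958 probe sets with 1 gene, 932 with several) and were updated by gene identifier from RefSeq (GRCm38.p6), which changed no member. Values under the floor of 394 were raised to it before taking log2. A gene was counted if it differed at least 2-fold, its mean exceeded the floor and so did its brighter array; "at least" marks folds whose dimmer value was under the floor. The number of arrays limits the precision.

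The members, lists, motifs and settings were chosen with earlier results of these data known. Named genes are the members with all probe sets, the list genes past 2-fold (the 2 highest and 2 lowest of longer lists), marker genes and Zbtb17 as checks, and the 5 genes nearest in ratio. Other list genes given as examples, and the promoter motifs, were chosen after values were seen. The alternatives were 3 other scalings (median centring, quantile, and loess with span 0.3), other floors, other readings of probe sets, and a brightness filter. Python 3.11.15, pandas 2.3.3, statsmodels 0.14.6 and Biopython 1.88 were used.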

Additional observations from a re-analysis of the deposited data

How the results depend on the processing

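Of 10 alternative settings, 8 were planned and 2 (no floor on the ratio, and H2-K1 with H2-D1 counted as 1 gene) were added after seeing the data. The setting without probe sets of shared sequence left out those with the suffix _x_at, _s_at or _a_at. It removed every probe set of H2-K1 (_x_at) and of B2m and Tap2 (_a_at, several transcripts of 1 gene). Of those left, 4 of 6 measured genes and 5 of 8 measured probe sets were at least 2-fold higher. With all probe sets these were 7 of 9 and 14 of 19, so both counts and shares fell. The median log2 ratio of the genes left was 1.24. In the other settings 6 or 7 genes were at least 2-fold higher, 6 with median centring, where Tap2 was just under the line, and 6 of 8 with H2-K1 and H2-D1 as 1 gene. Probe sets at least 2-fold higher numbered 13 to 17 in the settings that kept all of them, with 17 of 22 at a floor of the lower quartile. No measured member gene was 2-fold lower in any of the 10. The median stayed between 1.24 and 1.43. All 78 recomputed ratios of single members differed from the reported value by less than the SD within a gene. Many of them could not move. The other floors, the brightness filter and the ratio without a floor left every member ratio unchanged. The brightest probe set of each member lay above those floors on both arrays. The lowest and highest were 1.73 and 2.53 for H2-K1, 1.67 and 2.48 for H2-D1, 1.61 and 2.37 for B2m, and -0.20 and 0.01 for Erap1. The share of all measured genes at least 2-fold higher was 16.7% at the lower floor and between 5.55% and 9.89% otherwise. Of 162 recomputed counts of the related lists 11 moved by more than 1.5 times, 6 of them at the lower floor, where 4 of 9 interferon receptor and JAK genes and 4 of 12 class II genes passed 2-fold, higher and lower respectively. No paired analysis was possible because there is 1 array per genotype. Dim probe sets limit H2-D1 and Tap1, where 4 of 9 and 3 of 4 gave no ratio.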
